A study of Mus musculus with 4 samples.

Results

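The genes described here are the 10 G protein-coupled serotonin receptor genes Htr1a, Htr1b, Htr1d, Htr1f, Htr2a, Htr2c, Htr4, Htr5a, Htr6 and Htr7, taken by symbol from tables of 31735 gene rows that all 4 libraries share. All 10 had a row and an annotated length. The libraries are replicates 1 to 4 of 1 group, untreated adult control mice of the line Cbln2-EGFP/Rpl10a (NIDA172). In these mice ribosomal protein L10a carries EGFP, in a line named for Cbln2. RNA was taken from the rostral pons by translating ribosome affinity purification (TRAP), in which anti-EGFP antibodies on magnetic beads pull down tagged polysomes with the RNA they carry. The labels give neither sex nor the number of animals behind a library, so the spread between libraries may be technical. Every library is an immunopurified one, so the levels describe that RNA and cannot be set against whole tissue.

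Serotonin acts in the brain mainly through receptors of the G protein-coupled superfamily. Receptors of the 5-HT1 and 5-HT5 families couple to Gi/o proteins, which lower cyclic AMP and open inwardly rectifying potassium channels. Receptors of the 5-HT2 family couple to Gq/11 and phospholipase C, and 5-HT4, 5-HT6 and 5-HT7 couple to Gs, which raises cyclic AMP. The rostral pons holds the parabrachial nuclei and lies beside the dorsal raphe, whose serotonin neurons project to it.

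The receptors share a conserved Asp-Arg-Tyr codon run at the inner end of a transmembrane segment, and the coding stretches around it are shown because they set the receptor with the highest level, Htr2c, beside the next 3. A script searched the coding strand in frame for GAC or GAT, then CGN, AGA or AGG, then TAC or TAT. Htr4 was left out of this search, so whether it holds the run was not tested. The script found 1 such run in each of the other 9 receptors, and in 8.17% of 21489 annotated mouse coding sequences. Capitals mark the run, and letters are from GENCODE M21 transcripts (GRCm38).
Htr2c: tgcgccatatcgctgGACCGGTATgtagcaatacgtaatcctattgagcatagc
Htr2a: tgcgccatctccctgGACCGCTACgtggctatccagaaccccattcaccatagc
Htr1a: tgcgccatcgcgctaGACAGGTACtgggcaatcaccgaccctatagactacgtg
Htr5a: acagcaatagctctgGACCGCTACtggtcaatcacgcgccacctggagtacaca
The Htr2c stretch lies at chrX:147169656-147169709 and that of Htr2a at chr14:74645074-74645127. The Htr1a stretch lies at chr13:105444635-105444688 and that of Htr5a at chr5:27842845-27842898. All 4 are on the plus strand and within coding sequence. Over the 54 bases Htr2a matched Htr2c at 75.9%, Htr1a at 61.1% and Htr5a at 27 of the 54 bases. The same Htr2c stretch is repeated here with capitals on the codon stretch within which adenosines are known to be edited to inosine, which changes the protein loop that meets the G protein.
Htr2c: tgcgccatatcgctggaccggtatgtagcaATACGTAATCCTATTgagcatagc
The deposited values are counts per gene, so edited and unedited Htr2c RNA are counted together.

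The libraries held 12731825 to 21140265 gene counts, lowest in replicate 3. The ribosomal RNA row Rn45s took 24.2% of the counts of replicate 3 and 9.29% of those of replicate 4, against 1.61% to 1.68% in the others, which lowers the CPM (counts in 1000000 gene counts) of all other genes there. All 10 general neuronal markers reached 1 CPM in every library, with summed levels of 12015 to 26107 CPM. The astrocyte list summed to 439 to 2181 CPM, the oligodendrocyte list to 454 to 2508 CPM and the cerebellar granule cell list to 189 to 1539 CPM. Across the shared rows, 10632 (33.5%) reached 1 CPM in all 4 libraries.

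Of the 10 receptor genes, 6 reached 1 CPM in all 4 libraries, namely Htr2c, Htr1a, Htr5a, Htr2a, Htr7 and Htr1b. Htr1d and Htr4 did so in 3 libraries, Htr1f in 2 and Htr6 in none. Together the 10 genes held 277, 386, 217 and 270 CPM in replicates 1 to 4. In bulk RNA of this kind, fewer cells that use a gene and less RNA per cell cannot be told apart. To compare genes, CPM were divided by the length in kb of all annotated exons of a gene.

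Htr2c stood first in every library. It encodes the 5-HT2C receptor, which couples to Gq/11 and is known for roles in feeding and anxiety. It had 3767, 3756, 1461 and 2449 counts, or 178, 241, 115 and 160 CPM, in replicates 1 to 4. It ranked 1238, 846, 1577 and 1265 among the shared rows by CPM in these libraries. Per kb of exon it was at 18.6 ± 5.63 CPM per kb (SD, n = 4), from 12.3 in replicate 3 to 25.9 in replicate 2. It exceeded each of the other 9 receptors in all 4 libraries, by a mean of over 2 SD of the log2 ratio.

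How far Htr2c leads depends on the length used. Its exons cover 9.328 kb over its 7 annotated transcripts, while its longest coding transcript has 4.883 kb. With that shorter length its level was 35.5 ± 10.8 CPM per kb, and Htr2c still came first. The log2 ratio of Htr2c to Htr1a, the second receptor, was 1.12 ± 0.45 (SD, n = 4) with all exons and 2.03 ± 0.45 with the longest coding transcript. The top 4 on average were Htr2c, Htr1a, Htr5a and Htr2a, in that order, by all exons, by coding length, by longest coding transcript and by CPM alone.

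Htr2c is also a known gene of the choroid plexus. Of the choroid plexus genes, Prlr was at 54.0, 40.05, 14.8 and 73.0 CPM and Ttr at 0, 2.89, 1.41 and 106 CPM in replicates 1 to 4, while Folr1 and Aqp1 were at 0 counts in all 4. The whole list of 10 choroid plexus and ependymal genes summed to 60.8, 51.8, 34.2 and 213 CPM, and 2 of its genes, Prlr and Kcnj13 (the second named after its values were seen), reached 1 CPM in every library. The part of choroid plexus RNA in the Htr2c level was not tested.

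Htr2a, the other Gq/11-coupled member and the main target of classical psychedelics, came 4th of 10. It was at 20.2, 8.36, 18.1 and 21.2 CPM in replicates 1 to 4, or 3.03 ± 1.05 CPM per kb (SD, n = 4). Replicate 2 was low and the other 3 libraries lay close together. Htr2c exceeded Htr2a by a log2 ratio of 2.45 ± 0.87, above 0 in 4 of 4 libraries.

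**Figure D1:**
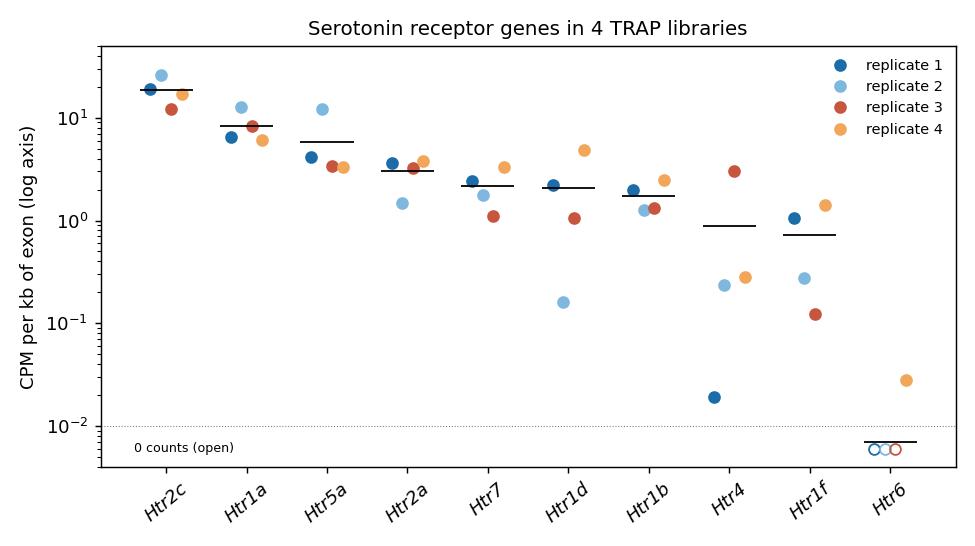
Level of each receptor gene in CPM per kb of exon (log axis), with 1 point per library and a line at the mean of the 4 libraries; open points stand for 0 counts and are placed below the dotted line. Htr2c lies between 12.3 and 25.9 in the 4 libraries, while Htr4, Htr1d and Htr1f spread over more than a decade.

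Among the Gi/o-coupled receptors, Htr1a stood second in all 4 libraries. It encodes the 5-HT1A receptor, which is the cell body autoreceptor of serotonin neurons and is also found on many of their target neurons. It was at 29.1, 56.4, 37.6 and 27.0 CPM in replicates 1 to 4, or 8.37 ± 2.99 CPM per kb (SD, n = 4). Replicate 2 was the highest, and the other 3 libraries fell between 27.0 and 37.6 CPM.

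Genes that mark serotonin neurons were measured in the same libraries. Tph2, which makes serotonin, was at 1.94, 5.08, 6.52 and 22.4 CPM in replicates 1 to 4. The 7 serotonergic markers summed to 4.82, 6.36, 64.2 and 64.7 CPM, with 1 of 7 at 1 CPM in every library. Lmx1b, a transcription factor gene that other hindbrain neurons use too, was at 1.23, 0, 54.5 and 18.7 CPM. The part of serotonin neuron RNA in the Htr1a level was not tested.

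Htr5a, which encodes the Gi/o-coupled 5-HT5A receptor, came 3rd of 10 on average and was highest in replicate 2. It was at 22.5, 65.2, 18.4 and 18.02 CPM in replicates 1 to 4, or 5.77 ± 4.26 CPM per kb (SD, n = 4). Without replicate 2 it was at 3.65 ± 0.46 CPM per kb. Replicate 2 was also the highest library for the 8 cerebellar granule cell markers, which summed to 639, 1539, 189 and 320 CPM, and for the 7 Purkinje cell markers, at 1455, 2497, 732 and 683 CPM. All 8 granule cell markers and 6 of the 7 Purkinje cell markers reached 1 CPM in every library. The cholinergic list (169 CPM, against 65.1 to 94.0) and the endothelial and mural list (263 CPM, against 209 to 219) were also highest in replicate 2. The part of cerebellar or other RNA in the Htr5a level was not tested.

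Htr1b, Htr1d and Htr1f are close relatives that also couple to Gi/o, and Htr1b is best known on axon terminals. Htr1b was even, at 9.27, 5.91, 6.20 and 11.6 CPM in replicates 1 to 4, or 1.75 ± 0.57 CPM per kb (SD, n = 4). An antisense gene, D430036J16Rik, overlaps 852 bases of its exons and had 208, 141, 23 and 83 counts beside 196, 92, 79 and 178 for Htr1b. Since the strand setting of the counting is not given, it is not known to which gene, if any, reads in the overlap were counted.

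Htr1d was at 7.05, 0.514, 3.38 and 15.7 CPM in replicates 1 to 4, a range of 30.5 times. Htr1f was at 2.74, 0.707, 0.314 and 3.66 CPM, with only 4 counts in replicate 3. Both were highest in replicate 4 and next highest in replicate 1, and so were Htr1b, Htr7 and, narrowly, Htr2a (21.2 and 20.2 CPM). Replicate 4 also had the highest sums of noradrenergic markers (249 CPM, against 23.1 to 73.8 in the others) and of oligodendrocyte precursor markers (87.7 against 22.4 to 43.1). It was highest for microglia markers too (44.5 CPM, against 3.79 to 21.9). Also highest there were the astrocyte (2181 CPM), oligodendrocyte (2508 CPM) and choroid plexus and ependyma lists (213 CPM). The serotonergic list was at 64.7 CPM there, against 64.2 in replicate 3. Of all these lists, only the microglia and the choroid plexus and ependyma lists were next highest in replicate 1. The part of any of these lists in the receptor levels was not tested.

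The Gs-coupled receptors were the lowest class. Htr7, which is known for roles in circadian timing and body temperature, was at 8.18, 6.04, 3.77 and 11.2 CPM in replicates 1 to 4, or 2.15 ± 0.93 CPM per kb (SD, n = 4). Htr4 had 2, 18, 190 and 21 counts, or 0.0946, 1.16, 14.9 and 1.37 CPM. Replicate 3 alone carried most of its 231 counts, and without it the mean was 0.178 CPM per kb, against 0.894 with all 4 libraries. Of the marker lists, none was high in replicate 3 alone. Htr6 had 1 count in replicate 4 and 0 in the others, which allows up to 0.142, 0.193 and 0.236 CPM in replicates 1 to 3, as counting error only.

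**Figure D2:**
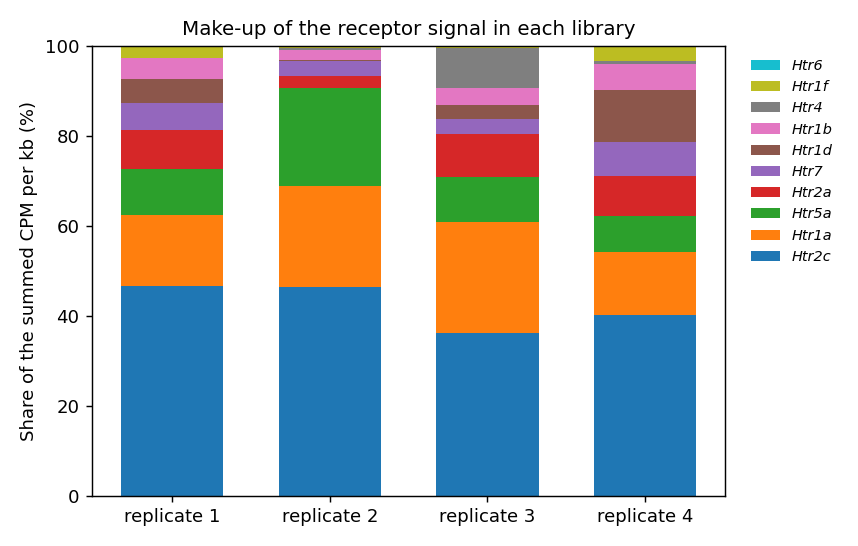
Share of each receptor gene in the summed CPM per kb of exon of the 10 genes, as stacked bars that add to 100% in each of the 4 libraries. Htr2c takes 36.2% to 46.5% and Htr1a 14.1% to 24.7%, and the share of Htr5a ranges from 7.86% to 21.8%.

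By coupling, the signal was divided between Gq/11 and Gi/o receptors. As a share of the summed CPM per kb, Gq/11-coupled genes held 49.8% ± 4.02 (SD, n = 4), from 45.7% to 55.3%. Gi/o-coupled genes held 42.7% ± 3.53, from 38.8% to 47.3%, so the ranges of these 2 classes overlapped. Within each library the Gq/11 share was the higher, most closely in replicate 2 (49.1% against 47.3%). Gs-coupled genes held 7.55% ± 3.69, with 12.2% in replicate 3, where Htr4 gave 8.95%. With the longest coding transcript as length, Gq/11 genes held 63.1% ± 3.96 and Gi/o genes 30.9% ± 2.49, with no overlap. RNA levels do not give receptor protein or signalling strength.

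The full order by mean CPM per kb was Htr2c, Htr1a, Htr5a, Htr2a, Htr7, Htr1d, Htr1b, Htr4, Htr1f and Htr6. Of its 9 neighbouring steps, only the step from Htr2c to Htr1a kept 1 direction in 4 of 4 libraries with a mean over 2 SD. Htr1a exceeded Htr5a in 4 of 4 libraries, but its log2 ratio of 0.64 ± 0.47 was under 2 SD. Htr1f likewise exceeded Htr6 in 4 of 4 (1.11 ± 0.76). The other 6 steps changed direction between libraries, so Htr5a, Htr2a, Htr7, Htr1d, Htr1b, Htr4 and Htr1f have no fixed order between neighbours. The widest of these was Htr1f against Htr4, at a log2 ratio of 0.11 ± 1.87.

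Over all 45 pairs of receptors, 33 kept their direction in 4 of 4 libraries and 21 of these had a mean over 2 SD. The two-sided exact sign-flip permutation test has 16 sign patterns with 4 libraries, so its smallest p is 0.125, or 0.170 adjusted over the 45 pairs. No pair could therefore pass 0.05, and the direction in each library is what the data give. Log2 ratios have a pseudocount of 0.5 CPM per kb, which shortens the ratios of Htr4, Htr1f and Htr6. It also shortens those of Htr1d in replicate 2, where Htr1d was at 0.161 CPM per kb.

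The gene rows with the profile nearest to that of Htr2c over the 4 libraries, by Euclidean distance of log2 CPM per kb among 23127 rows, were Sf3b1, Sap18 and Kcnd2. Their distances were 0.18, 0.18 and 0.19. This distance also takes in the level itself, so the neighbours rest on the 9.328 kb exon length used for Htr2c. Neighbours by its longest coding transcript (4.883 kb) were not sought. Kcnd2 encodes a potassium channel of the A-type current, and it was at 97.8, 139, 68.0 and 79.7 CPM in replicates 1 to 4.

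The descriptions number the libraries 2469 and 2470 (replicates 3 and 4, here the second pair) and 1666 and 1667 (replicates 1 and 2, the first pair). The labels name no batch, and no treatment differs. The pairs were compared with edgeR's quasi-likelihood test over 13905 genes, which asks how far the receptors vary beyond the spread inside the pairs. Of 9 tested receptors, 0 passed an adjusted p of 0.05, beside 1.27% of all tested genes (0.712% higher and 0.554% lower in the second pair). DESeq2 also called 0 receptors, beside 9.23% of all tested genes. At an unadjusted p under 0.05 edgeR gave 0 receptors beside 2334 of the 13905 genes, and DESeq2 gave 1, Htr4, beside 2893. Htr6 was too low to be tested.

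Htr4 was at 14.9 and 1.37 CPM in the second pair, against 0.0946 and 1.16 CPM in the first. The 2 pairs did not overlap, but the log2 difference of 3.79 (SE 1.79, edgeR adjusted p = 0.313) rested on replicate 3, and it was 1.01 (SE 3.95) without that library. Htr5a was at 18.4 and 18.02 CPM in the second pair, against 22.5 and 65.2 CPM in the first, a log2 difference of -1.26 (SE 0.67, edgeR adjusted p = 0.377). Without replicate 2 that difference was -0.25 (SE 0.90).

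Htr2c was at 115 and 160 CPM in the second pair, against 178 and 241 CPM in the first. Its log2 difference was -0.61 (SE 0.36, edgeR adjusted p = 0.428), the smallest SE of the 9 receptors. These 3 receptors were the ones whose pairs did not overlap, 3 of 9 beside 47.7% of all tested genes (24.3% higher and 23.4% lower in the second pair), so the share of receptors was not above that of other genes. The median log2 difference was 0.14 over the 9 receptors and -0.03 over all tested genes. The remaining 6 had log2 differences of -0.38 (Htr1a) to 1.29 (Htr1d), each smaller than its SE.

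**Figure D3:**
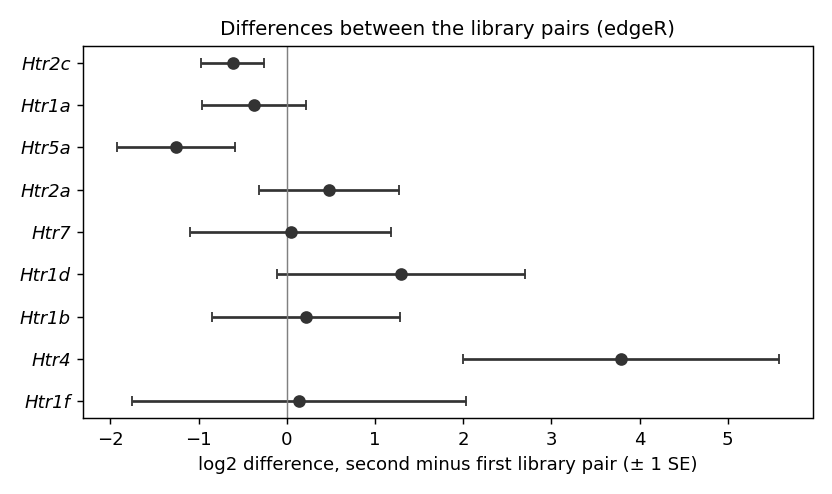
Log2 difference of the second minus the first library pair for the 9 tested receptor genes, with bars of 1 SE from edgeR. Htr4 has the largest difference at 3.79 with an SE of 1.79, and no receptor passed the test.

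The receptors' spread over the 4 libraries was also set beside that of other genes. The SD of log2 CPM, after TMM scaling and with 0.5 CPM added, had a median of 0.59 over the 9 tested receptors and 0.80 over all 13905 tested genes. Htr1b (0.37) and Htr2c (0.41) varied least. Htr4 (2.03), Htr1d (1.65) and Htr1f (1.07) varied most.

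**Figure D4:**
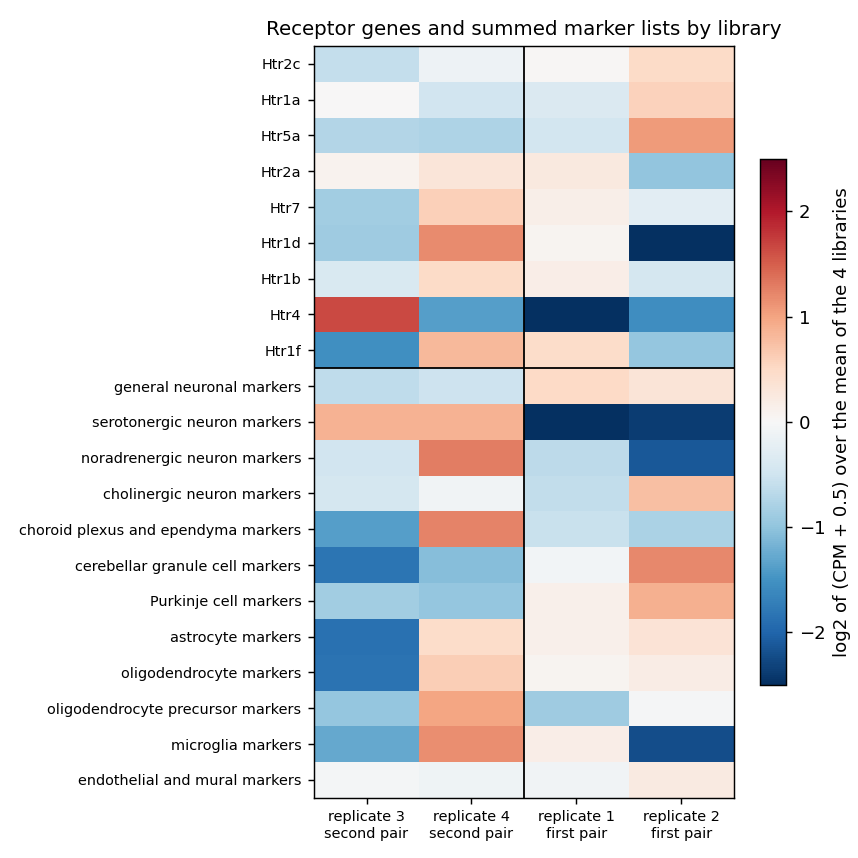
Level of 9 receptor genes (upper rows, CPM) and summed CPM of 12 marker lists (lower rows) in each library, as log2 of CPM + 0.5 over the mean of the 4 libraries; the second pair is on the left, and values beyond 2.5 in either direction take the end colour. Htr4 is highest in replicate 3, Htr5a and the granule cell list in replicate 2, and Htr1d and the noradrenergic list in replicate 4.

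Other serotonin genes were measured beside the receptors. The channel genes Htr3a and Htr3b, which form the ionotropic 5-HT3 receptor, and the remaining 5-HT2 gene, Htr2b, were at 0 counts in all 4 libraries. Htr5b had 11, 22, 6 and 0 counts in replicates 1 to 4. So 0 of these 4 receptors reached 1 CPM throughout, and none was high enough to test between the pairs.

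Of 9 genes for making, moving and breaking down serotonin, 5 reached 1 CPM in every library. Maoa, which breaks down serotonin and noradrenaline, was at 70.9 ± 15.4 CPM and Maob at 34.8 ± 22.7 CPM (SD, n = 4). Slc18a2, the vesicular transporter of all monoamines, was at 26.7, 16.3, 15.6 and 92.6 CPM in replicates 1 to 4. Of 8 tested genes of this list 0 were called between the pairs by edgeR, and their median log2 difference was 1.33.

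The G proteins that the receptors use were abundant. All 9 alpha subunit genes reached 1 CPM in every library. Per kb of exon, Gnas (Gs) was at 280 ± 25.8, Gnai1 (Gi) at 204 ± 110, Gnao1 (Go) at 153 ± 37.4 and Gnaq (Gq) at 56.2 ± 3.55 CPM per kb (SD, n = 4). Of these 9 genes edgeR called 0 between the pairs. DESeq2 called only Gnai1 (log2 -1.33, adjusted p = 0.0059) and Gnal (log2 -1.08, adjusted p = 0.0138), both lower in the second pair. It called 9.23% of all tested genes.

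All 7 genes of binding and editing partners reached 1 CPM in every library. Adarb1, which encodes ADAR2, an enzyme that edits within the Htr2c codons shown above, was at 209 ± 32.0 CPM (SD, n = 4). Adar was at 172 ± 93.9 CPM. Arrb1, a beta-arrestin that binds activated receptors, was at 212 ± 44.9 CPM. S100a10, also called p11, binds the 5-HT1B and 5-HT4 receptors, and was at 10.5, 13.1, 40.8 and 15.9 CPM in the 4 replicates. Its level was highest in replicate 3, as that of Htr4 was, and a link between these genes was not tested. EdgeR called 0 of the 7 between the pairs, and DESeq2 called only Adar, higher in the second pair (log2 1.35, adjusted p = 0.0062).

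Of 12 effector genes, 11 reached 1 CPM in every library. Kcnj3, a subunit of the potassium channel that Gi/o receptors open, was at 101 ± 26.9 CPM (SD, n = 4). The adenylyl cyclase genes Adcy1 and Adcy2 were at 260 ± 124 and 161 ± 51.2 CPM. Plcb4, a phospholipase C that Gq receptors activate, fell to 276 and 309 CPM in the second pair, against 672 and 1227 CPM in the first (log2 -1.69, SE 0.35, edgeR adjusted p = 0.0386). Plcb4 is strongly used by Purkinje cells, whose 7 markers had lower sums in the second pair (732 and 683 CPM, against 1455 and 2497 CPM). EdgeR called Itpr1 and Car8 of these lower and none higher, and 2 of the 7 had log2 differences above 0, Calb1 (0.57, adjusted p = 0.486) and Pcp2 (1.85, adjusted p = 0.538), both named after their values were seen. The part of Purkinje cell RNA was not tested, and Plcb4 was not called without replicate 2 (adjusted p = 0.126).

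In position, the receptor genes are spread over the genome. On GRCm38, Htr2c (ENSMUSG00000041380.13) lies on chromosome X at 146962513 to 147197277, plus strand, and Htr1a (ENSMUSG00000021721.5) on chromosome 13 at 105443639 to 105448122, plus strand. Htr5a (ENSMUSG00000039106.6) lies on chromosome 5 at 27842149 to 27855088, and Htr2a (ENSMUSG00000034997.5) on chromosome 14 at 74640840 to 74709494. Htr4 (ENSMUSG00000026322.9) lies on chromosome 18 at 62324204 to 62496577. Htr1a, Htr1b, Htr1d and Htr1f have their coding sequence in 1 exon, and Htr1a is a gene of 1 exon altogether, so its reads cannot show splicing. The introns of Htr2c hold 8 small RNA genes, none of which shares exon bases with it.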

How the data were processed

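Each library's deposited table lists whole-number read counts by gene symbol, which the authors did not scale. STAR 2.0.0e, HTSeq and mm10 are named in the submitters' processing notes. The annotation and the strand setting are not given in the sources used here. The 5 HTSeq summary rows were left out, among them reads outside features (24.0% to 30.1% of a library's total) and reads with more than 1 alignment (28.6% to 37.2%). CPM used all gene rows of a table, and tests used the 31735 shared rows. Lengths came from GENCODE M21 (GRCm38, the assembly of mm10), found for 23128 rows. Second and first library pairs were compared with edgeR 4.0.16 (TMM, filterByExpr, quasi-likelihood test, Benjamini-Hochberg over all tested genes), with DESeq2 1.42.0 as an alternative. Only the edgeR test was tried on simulated counts. These held less spread than the data and larger differences than any receptor showed in the full data. They do not show which receptor differences the test would miss. No libraries were duplicates (chi-square of at least 153 per degree of freedom over 10632 genes). One library's description carries another's replicate label, and titles were followed. Floors are 3 counts. Members and gene lists were chosen with earlier results of these data known. Named are all members, the 3 rows nearest in profile to the highest one, each pathway list's 4 highest genes per kb, called genes, genes at 0, and the 2 highest genes of a marker list.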

Additional observations from a re-analysis of the deposited data

Results flagged for a closer look

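In Htr4 and Htr5a 1 library stood apart from the other 3 by more than Dixon's 95% criterion for 4 samples, which chance passes in about 1 of 20 groups. These are 2 of the 9 receptors with a mean of at least 1 CPM, beside 1631 of 13841 shared gene rows (11.8%) with such a mean. Htr4 was at 3.04 CPM per kb in replicate 3 and at 0.279 or less in the others. Htr5a was at 12.1 CPM per kb in replicate 2, against 3.35 to 4.18 in the others. Htr6 also met the criterion, at 0.0279 CPM per kb in replicate 4 and 0 in the others, but that value is 1 count, and any gene with counts in 1 library alone meets it by construction.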

How the results depend on the processing

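Htr2c held 42.3% ± 5.05 of the summed receptor level per kb of exon (SD, n = 4). It held 59.7% without division by length, 55.8% by coding length and 57.8% by the longest coding transcript, the last chosen after seeing the data, and 40.9% to 44.4% when 1 replicate was left out. Receptors detected throughout numbered 6 to 7 under all alternatives run, and receptor pairs with 1 direction and a mean over 2 SD numbered 18 to 26, against 21, with 0 of the 21 reversed. Genes called between the library pairs numbered 176, but 1283 by DESeq2, 875 without a filter on low counts and 389 to 699 when 1 replicate was left out. Receptors called were 0 under every alternative run. Leaving out 1 replicate turned the sign of 6 uncalled log2 differences, which ranged from -0.80 to 0.22 for Htr1a, -0.16 to 0.55 for Htr1b and -0.024 to 4.11 for Htr1d. They ranged from -2.30 to 1.38 for Htr1f, -0.0013 to 1.22 for Htr2a and -0.79 to 0.56 for Htr7. The lone library of a pair was then assumed to vary like the others. No paired analysis was possible because the labels give 1 group. Depth limits Htr6, Htr4 and Htr1f, which had 1, 231 and 129 counts in all.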
